A study of Mus musculus with 17 samples.

Results

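Type I interferon-stimulated antiviral genes were followed in the lungs of focally irradiated mice. The 43 genes were chosen by name, as genes known to be induced through the type I interferon receptor, and the rule that chose them used symbols only. All 43 were among the 45777 genes of the count table, and all 43 were among the 22052 genes that passed the filter on low counts. The lungs came from wild-type male C57BL/6 mice that were 6 weeks old on arrival and were acclimatised for 1 week. Irradiated mice had received 1 fraction of 65 Gy or 75 Gy to the left lung through a small collimated beam under image guidance, and control mice had received no radiation. Tissue was taken after 2 weeks, called the inflammation stage, or after 6 weeks, called the fibrosis stage, and RNA of irradiated mice came from the lesion. Each group held 3 libraries, except for 65 Gy at 6 weeks with 2, which gives 17 libraries in 6 groups. The labels do not state that each library was a separate animal, so the p-values measure the spread between these libraries, which may be technical.

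Interferons alpha and beta bind a receptor made of IFNAR1 and IFNAR2 and activate the kinases JAK1 and TYK2. These phosphorylate STAT2, which joins IRF9 in a complex that enters the nucleus and binds the interferon-stimulated response element (ISRE) in the promoters of many genes. The products of these genes sense foreign nucleic acids, block translation or degrade RNA, tag proteins with ISG15 or hinder viruses at membranes. DNA that leaves the nucleus after radiation damage is a known trigger of this pathway through the sensor cGAS and its adaptor STING.

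Total counts per library ranged from 46764569 to 66797879, with a median of 57608149, and the lowest count of any of the 43 genes in any library was 114. Levels are given as CPM, the counts of a gene relative to the library total after scaling with TMM factors, which compare libraries but not genes of different length. A gene was called when it passed 2 limits: an adjusted p no greater than 0.05 (edgeR's quasi-likelihood test, Benjamini-Hochberg method over the 22052 genes) and a log2 fold change of 1 or more in either direction. The tissue label was checked against 6 genes of lung epithelium (Sftpc, Sftpb, Sftpa1, Sftpd, Ager and Scgb1a1), whose summed level lay between 21073 and 45772 CPM, with the lowest sum in library 3134 of 75 Gy at 2 weeks. That library also stood apart in the genes described here, and the values that it moved most are given with and without it. In whole tissue, a change in the number of cells of a type and a change in RNA per cell cannot be told apart.

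The promoters were examined first, because the ISRE is the feature by which this pathway acts. RefSeq promoter windows of the assembly GRCm38.p6, each of 300 bases from 250 before to 50 after a start site, were matched for 32 of the 43 genes. Mx1, Mx2, Oas2, Usp18, Ifi27l2a, Dhx58, Rtp4, Zbp1, Parp9, Parp14 and Tor3a had no window there. The ISRE core was searched on both strands as the letters GAAANNGAAA, in which N is any base. It was found in the windows of 17 of the 32 genes (53.1%), against 1079 of all 27025 genes with a window (3.99%). The core of the gamma-activated site, TTCNNNGAA, an element of genes induced by interferon gamma, was found in 7 of the 32 (21.9%), against 9.55% of all genes. Over the windows of the 17 genes, counting each window of a gene with more than 1, the core occurred 28 times, with 21 of these starting within 200 bases upstream of the start site and a median of 73.5 bases upstream. The windows of Slfn8 overlap and hold the same core, which these values count in each window.

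The 250 bases upstream of the start site are shown for 7 genes, with each ISRE core on either strand in capitals (TTTC at both ends marks a core on the opposite strand). Ifit1, Isg15, Oas1a and Oas1g were called at both doses and both times, Rsad2 at 2 weeks only, Stat2 in no comparison, and Lgals3bp in all 4 comparisons although its window held no core.
Ifit1: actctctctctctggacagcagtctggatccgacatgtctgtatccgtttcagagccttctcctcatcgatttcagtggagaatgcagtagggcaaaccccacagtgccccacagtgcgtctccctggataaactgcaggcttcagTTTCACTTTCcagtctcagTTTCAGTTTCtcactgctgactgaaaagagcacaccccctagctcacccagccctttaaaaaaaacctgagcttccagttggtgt
Isg15: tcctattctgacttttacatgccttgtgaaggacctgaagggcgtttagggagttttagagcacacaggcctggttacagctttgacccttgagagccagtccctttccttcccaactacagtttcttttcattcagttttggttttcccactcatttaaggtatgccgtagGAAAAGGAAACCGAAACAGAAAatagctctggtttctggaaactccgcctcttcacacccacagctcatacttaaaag
Oas1a: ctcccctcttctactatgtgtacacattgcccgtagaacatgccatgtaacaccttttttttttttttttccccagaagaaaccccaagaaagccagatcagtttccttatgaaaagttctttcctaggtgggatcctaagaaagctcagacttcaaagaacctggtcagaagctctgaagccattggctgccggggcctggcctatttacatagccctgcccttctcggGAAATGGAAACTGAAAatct
Oas1g: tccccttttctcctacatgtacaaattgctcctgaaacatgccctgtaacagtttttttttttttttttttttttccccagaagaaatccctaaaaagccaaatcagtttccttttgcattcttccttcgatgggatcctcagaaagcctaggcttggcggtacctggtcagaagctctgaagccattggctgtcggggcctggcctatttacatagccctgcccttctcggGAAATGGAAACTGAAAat
Rsad2: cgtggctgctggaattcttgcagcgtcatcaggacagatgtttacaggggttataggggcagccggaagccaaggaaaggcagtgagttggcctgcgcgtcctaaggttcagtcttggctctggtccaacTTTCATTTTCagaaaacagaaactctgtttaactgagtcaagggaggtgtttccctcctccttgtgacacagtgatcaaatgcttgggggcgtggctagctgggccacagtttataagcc
Stat2: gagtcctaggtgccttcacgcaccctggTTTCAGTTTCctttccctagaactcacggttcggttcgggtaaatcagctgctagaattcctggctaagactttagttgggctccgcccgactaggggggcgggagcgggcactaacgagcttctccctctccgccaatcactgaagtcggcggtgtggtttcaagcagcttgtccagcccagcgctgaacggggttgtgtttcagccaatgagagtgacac
Lgals3bp: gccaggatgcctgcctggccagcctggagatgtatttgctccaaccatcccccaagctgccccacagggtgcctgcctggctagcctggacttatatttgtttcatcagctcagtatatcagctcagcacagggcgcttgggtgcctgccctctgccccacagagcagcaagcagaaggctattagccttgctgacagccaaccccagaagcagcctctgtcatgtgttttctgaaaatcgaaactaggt
The windows lie, in this order, at chr19:34640639-34640888 (plus strand), chr4:156200819-156201068 (minus strand), chr5:120907526-120907775 (minus strand), chr5:120887614-120887863 (minus strand), chr12:26456453-26456702 (minus strand), chr10:128270248-128270497 (plus strand) and chr11:118401960-118402209 (minus strand) of GRCm38.p6. Isg15 held 3 overlapping cores that began 78, 72 and 66 bases upstream, Oas1a and Oas1g each held 2 overlapping cores close to the start site, and the single core of Stat2 began 222 bases upstream. A core was present in 9 of the 15 genes with a window that were called in any comparison (60.0%) and in 8 of the 17 that were called in none (47.1%). A match of these letters is a description of the sequence and does not show that a factor was bound.

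The genes lie on 15 chromosomes, and 23 of them form 9 runs of neighbours within 1 Mb of each other. The largest are the Ifit cluster with 4 members (chr19:34550550-34650009) and the Oas cluster with 4 members (chr5:120730333-120907544). Neighbouring genes of near-identical sequence can share reads. Of the windows of 100 bases in the longest transcript, 40.1% in Oas1a also occurred letter for letter in Oas1g, and 31.7% in Ifit3 also occurred in Ifit3b, so the split of counts within these pairs is uncertain. The share was 1.25% for Mx1 against Mx2 and 0 for Oasl1 against Oasl2. In addition, 15 of the 43 genes overlap another annotated gene, for example Dtx3l with Parp9 and Stat2 with Apof, and whether counting used the strand is not given in the sources used here.

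**Figure D1:**
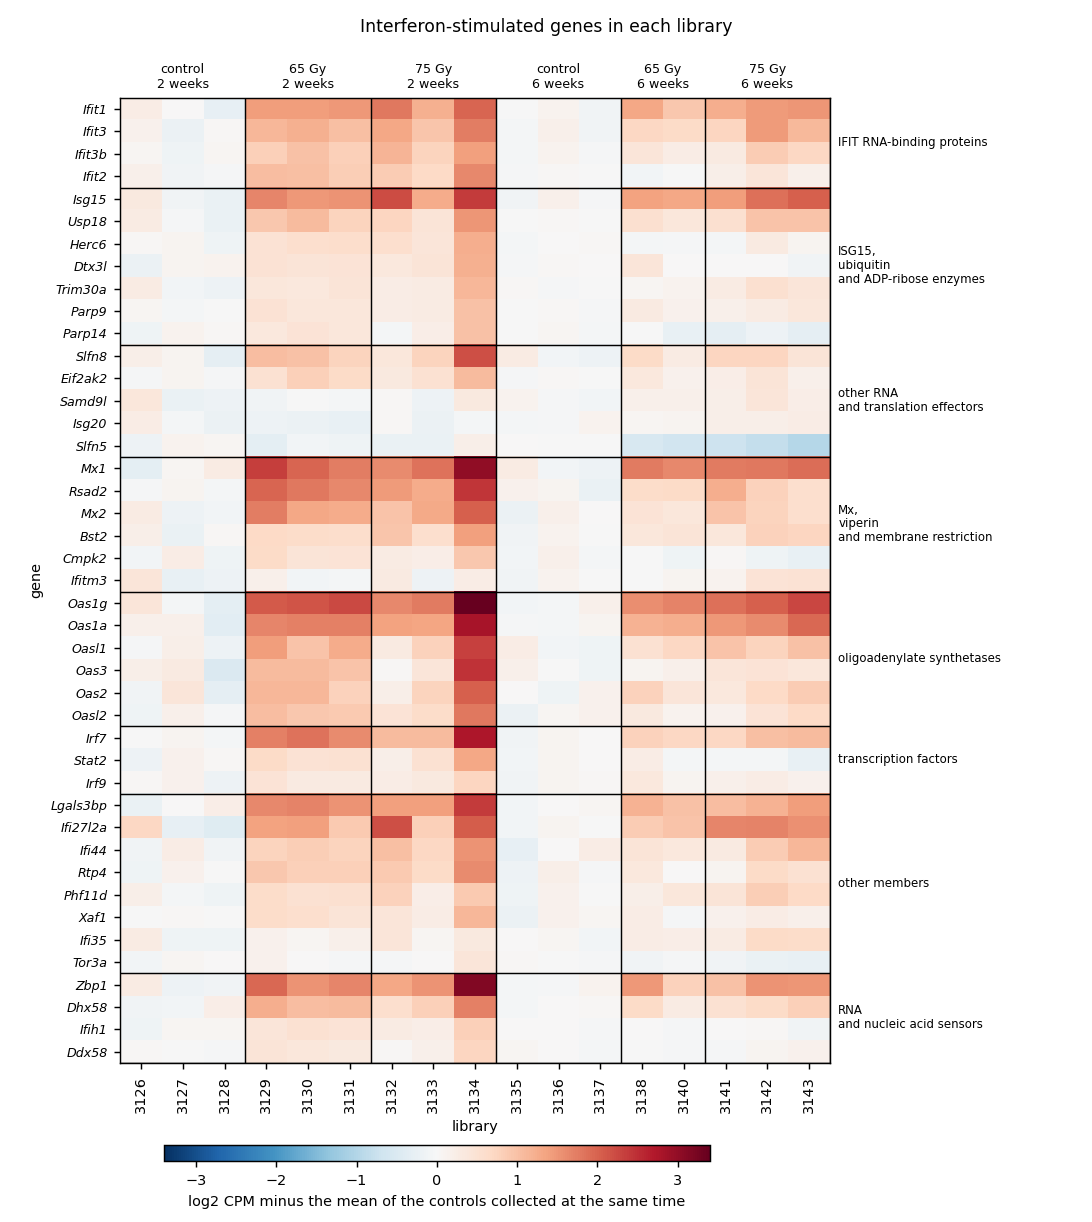
Each cell shows the log2 CPM of a gene (rows, grouped by role) in a library (columns, grouped by dose and time) minus the mean of the controls of the same time, with red above and blue below the controls. Library 3134 is the reddest column, with 30 of 43 genes more than 1 above the controls, and Slfn5 is the bluest row at 6 weeks.

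At 2 weeks after 75 Gy, 22 of the 43 genes were higher than in controls and none was lower. Over all genes tested, 5.67% were called higher and 2.07% lower. The median log2 fold change of the 43 was 1.09, against 0.00 over all genes, and 41 of the 43 had a positive value. Without library 3134, 12 genes were called with a median of 0.55, and a fit of only the groups compared called 14. At 2 weeks after 65 Gy, 14 of the 43 were higher and 0 lower, where the background was 3.47% higher and 0.88% lower, with a median of 0.84 against -0.01. At 6 weeks after 75 Gy the called genes numbered 9, all higher, with backgrounds of 7.28% higher and 3.13% lower and a median of 0.53 against 0.04. After 65 Gy at 6 weeks they numbered 6, all higher, with backgrounds of 4.34% and 0.943% and a median of 0.26 against 0.01, and without library 3138, which leaves 1 library in that group, they numbered 2. No member was called lower in any of the 4 comparisons, in DESeq2 or edgeR's exact test either. The comparisons of both doses at a time share their control libraries and are not independent of each other.

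By the adjusted p alone, without the limit on fold change, 35 of the 43 genes were higher at 75 Gy and 2 weeks (background 11.8%), 26 at 65 Gy and 2 weeks (6.7%), 19 at 75 Gy and 6 weeks (18%) and 7 at 65 Gy and 6 weeks (7.66%). Without library 3134 these counts were 26, 37, 28 and 12, where the background was 8.2%, 9.01%, 19.8% and 9.66%. Only the comparison at 75 Gy and 2 weeks holds this library. The other comparisons moved through what the joint fit of all libraries shares, such as the estimate of spread. Every irradiated library lay above every control for 31, 37, 33 and 26 genes in the same order, against backgrounds of 15.5%, 15.9%, 29.4% and 28.2% of all genes. At 2 weeks the groups thus separated for more genes at 65 Gy than at 75 Gy. Every irradiated library lay below every control for 0 genes at 2 weeks at either dose. At 6 weeks this held for 3 genes at 75 Gy (Slfn5, Tor3a and Parp14) and 2 at 65 Gy (Slfn5 and Tor3a). The share of all genes lying below was not computed.

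**Figure D2:**
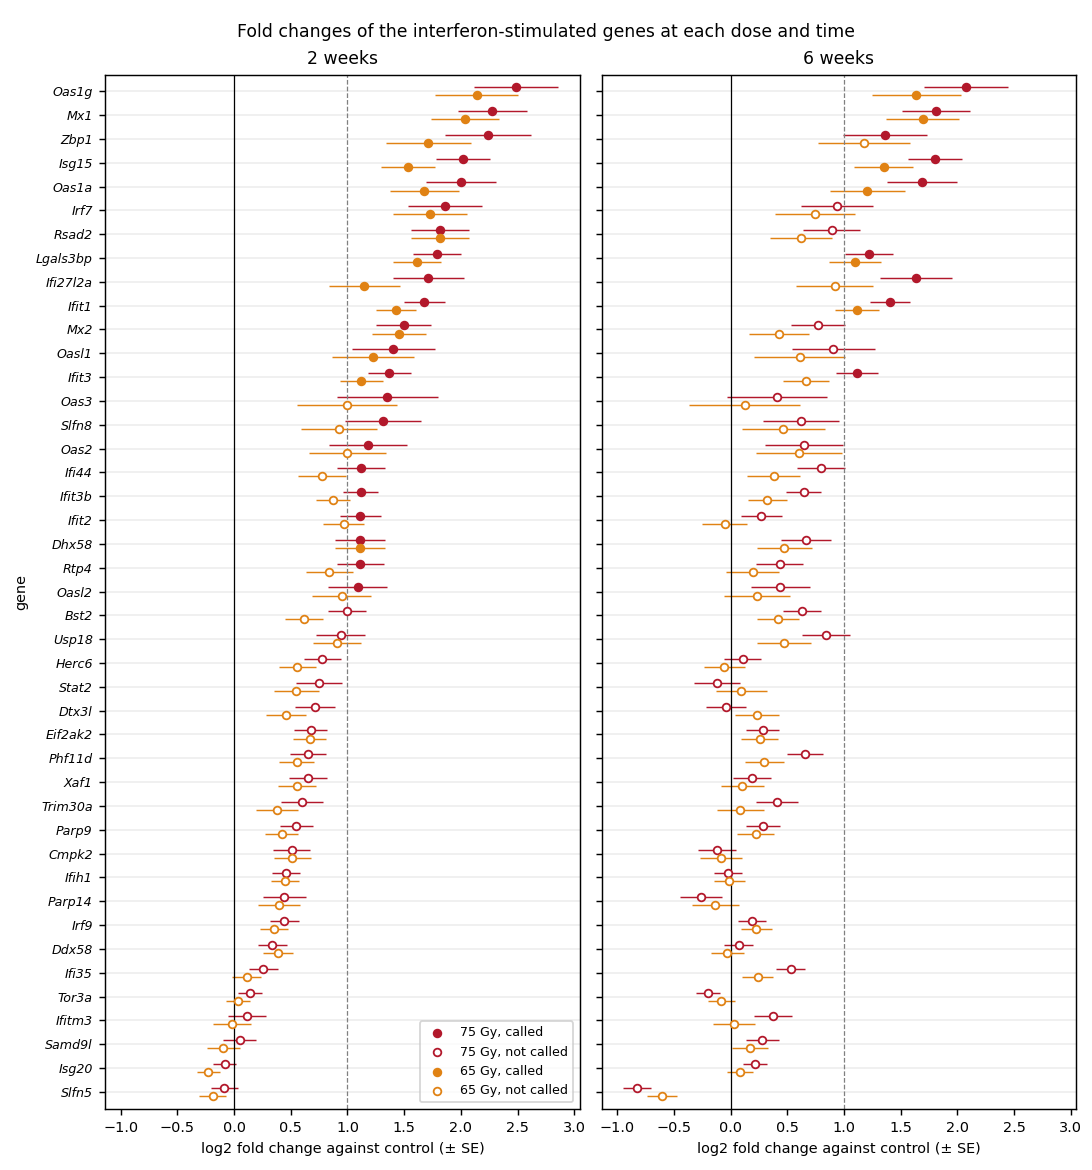
Log2 fold change against the controls of the same time (horizontal axis, bars show the SE) for each gene at 75 Gy (red) and 65 Gy (orange), with 2 weeks on the left and 6 weeks on the right; filled points were called. The points lie mostly right of 0 at 2 weeks and nearer to 0 at 6 weeks, with Slfn5 left of 0 at 6 weeks.

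With all libraries, calls followed a nested order. The 6 genes called in all 4 comparisons were Ifit1, Isg15, Mx1, Oas1a, Oas1g and Lgals3bp. Another 3 (Ifit3, Ifi27l2a and Zbp1) were called in all but 65 Gy at 6 weeks, and 5 (Mx2, Oasl1, Rsad2, Irf7 and Dhx58) at both doses at 2 weeks only. At 75 Gy and 2 weeks alone, 8 were called (Ifit2, Ifit3b, Oas2, Oas3, Oasl2, Ifi44, Rtp4 and Slfn8). This order rested on library 3134. Without it none of those 8 was called at 75 Gy and 2 weeks, 3 genes (Oas2, Oasl1 and Dhx58) were called at 65 Gy and 2 weeks alone, and Zbp1 was called in all 4 comparisons. Some other calls also rested on single libraries. At 65 Gy and 6 weeks those of Ifit1, Oas1a, Oas1g and Lgals3bp were lost without library 3138, and that of Oas1a whichever of the 5 compared libraries was left out. At 65 Gy and 2 weeks the call of Oasl1 was lost without any one library other than 3132, 3133 or 3134, and that of Ifi27l2a without 3127, 3128, 3129 or 3130. At 75 Gy and 6 weeks the call of Ifit3 was lost without 3142. The other 21 genes were called in no comparison, and Bst2 (tetherin, which holds budding virions on the cell) was just under the limit with a log2 fold change of 0.998 (SE 0.17) at 75 Gy and 2 weeks, and was called with RLE or upper-quartile factors and in DESeq2. A call in one group and not in another does not show that the groups differ.

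Among the IFIT proteins, which bind viral RNA ends, 4 of 4 genes were called at 75 Gy and 2 weeks, and Ifit1 and Ifit3 were without library 3134. Ifit1 (GeneID 15957, chr19:34640889-34650009) had the smallest p of the 43 genes in all 4 comparisons, although without library 3134 Lgals3bp had the smallest at 75 Gy and 2 weeks. Its level was 29.7, 25.3 and 20.5 CPM in the 2-week controls, 67.3, 67.1 and 68.8 CPM at 65 Gy and 86.1, 57.3 and 98.1 CPM at 75 Gy. At 6 weeks it was 18.7, 20.4 and 17.2 CPM in controls, 46.2 and 35.1 CPM at 65 Gy and 44.0, 51.6 and 53.5 CPM at 75 Gy. No irradiated library overlapped the controls of its time, and the 65 Gy libraries of 2 weeks were within 2 CPM of each other. Ifit1 rose 3.20-fold (log2 1.68, SE 0.18, adjusted p = 2.64e-05) and 2.65-fold (log2 1.40, SE 0.18, adjusted p = 6.06e-05) after 75 Gy at 2 and 6 weeks. After 65 Gy the log2 fold changes were 1.43 (SE 0.18) and 1.11 (SE 0.19), and the call at 6 weeks was lost without library 3138, with a value of 0.91. Ifit2 moved differently over time. Its level was between 57.8 and 112.0 CPM in the 6 irradiated libraries of 2 weeks, against 33.1 to 40.5 CPM in controls, but 39.9 and 42.1 CPM at 65 Gy and 6 weeks, within the 41.1 to 43.9 CPM of the controls or under it. At 75 Gy and 6 weeks it held 49.0, 56.5 and 48.2 CPM, above every control. In Ifit3 the log2 fold change at 75 Gy was 1.37 (SE 0.19) at 2 weeks and 1.11 (SE 0.19) at 6 weeks, and for its near copy Ifit3b it was 1.12 (SE 0.15) and 0.65 (SE 0.15).

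Most oligoadenylate synthetases make the messenger that switches on RNase L, which cuts RNA. All 6 listed (Oas1a, Oas1g, Oas2, Oas3, Oasl1 and Oasl2) were called at 75 Gy and 2 weeks, 3 at 65 Gy and 2 weeks, and both Oas1 genes at 6 weeks at either dose. Without library 3134 both Oas1 genes alone were called at 75 Gy and 2 weeks, and the calls at 65 Gy and 6 weeks were lost without library 3138. Oas1a (GeneID 246730, chr5:120896256-120907544) held 10.1, 10.2 and 7.07 CPM in the 2-week controls, 28.6, 29.7 and 29.4 CPM at 65 Gy and 23.3, 22.8 and 63.6 CPM at 75 Gy. At 6 weeks the controls held 7.05, 6.88 and 7.68 CPM, the 65 Gy libraries 16.4 and 16.9 CPM and the 75 Gy libraries 19.9, 21.8 and 28.0 CPM. The irradiated libraries did not overlap the controls at either time, and at 2 weeks library 3134 was far above the other 75 Gy libraries, which were below all those of 65 Gy. Oas1g had the largest log2 fold change of the 43 genes at 75 Gy, 2.49 (SE 0.37, adjusted p = 0.000357) at 2 weeks and 2.08 (SE 0.37, adjusted p = 0.000665) at 6 weeks. Without library 3134 its value at 2 weeks was 1.68 (SE 0.18), under the 1.81 of Isg15 and the 1.72 of Mx1. Oas3 rested on 1 library: it held 9.98, 12.9 and 53.9 CPM at 75 Gy and 2 weeks against 11.1, 12.1 and 6.88 CPM in controls, and its log2 fold change of 1.35 (SE 0.44) became 0.19 without library 3134.

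Mx1 and Mx2 encode dynamin-like GTPases against RNA viruses, and laboratory strains such as C57BL/6 are known to carry Mx genes that make no functional protein. Mx1 (GeneID 17857, chr16:97447035-97462906) held 3.11, 4.09 and 4.73 CPM in controls of 2 weeks, 20.1, 15.6 and 13.2 CPM at 65 Gy and 12, 14.2 and 31.7 CPM at 75 Gy. At 6 weeks it held 3.81, 2.91 and 2.74 CPM in controls and between 9.69 and 11.6 CPM in all 5 irradiated libraries. The log2 fold change was 2.28 (SE 0.30, adjusted p = 0.000153) and 1.81 (SE 0.30, adjusted p = 0.000428) at 75 Gy, and 2.03 (SE 0.30) and 1.69 (SE 0.32) at 65 Gy. Rsad2, which encodes viperin, an enzyme that makes a chain-terminating nucleotide, rose at 2 weeks by the same log2 fold change of 1.82 (SE 0.25) at both doses. Its level was 46.8, 41.1 and 36.3 CPM at 65 Gy and 32.0, 28.4 and 63.9 CPM at 75 Gy, against 11.3 to 12.6 CPM in controls. The equal values rested on library 3134, without which the log2 fold change at 75 Gy was 1.36 (SE 0.17) and the difference between the doses -0.45 (SE 0.17, adjusted p = 0.593). At 6 weeks Rsad2 was not called, with 13.3 and 13.6 CPM at 65 Gy and 20.7, 15 and 13 CPM at 75 Gy against 7.45 to 9.60 CPM in controls, so that the irradiated libraries still did not overlap the controls. Ifitm3, which blocks viral fusion in endosomes, was among the genes with the largest p at 2 weeks, with log2 fold changes of 0.11 (SE 0.17) at 75 Gy and -0.02 (SE 0.17) at 65 Gy.

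**Figure D3:**
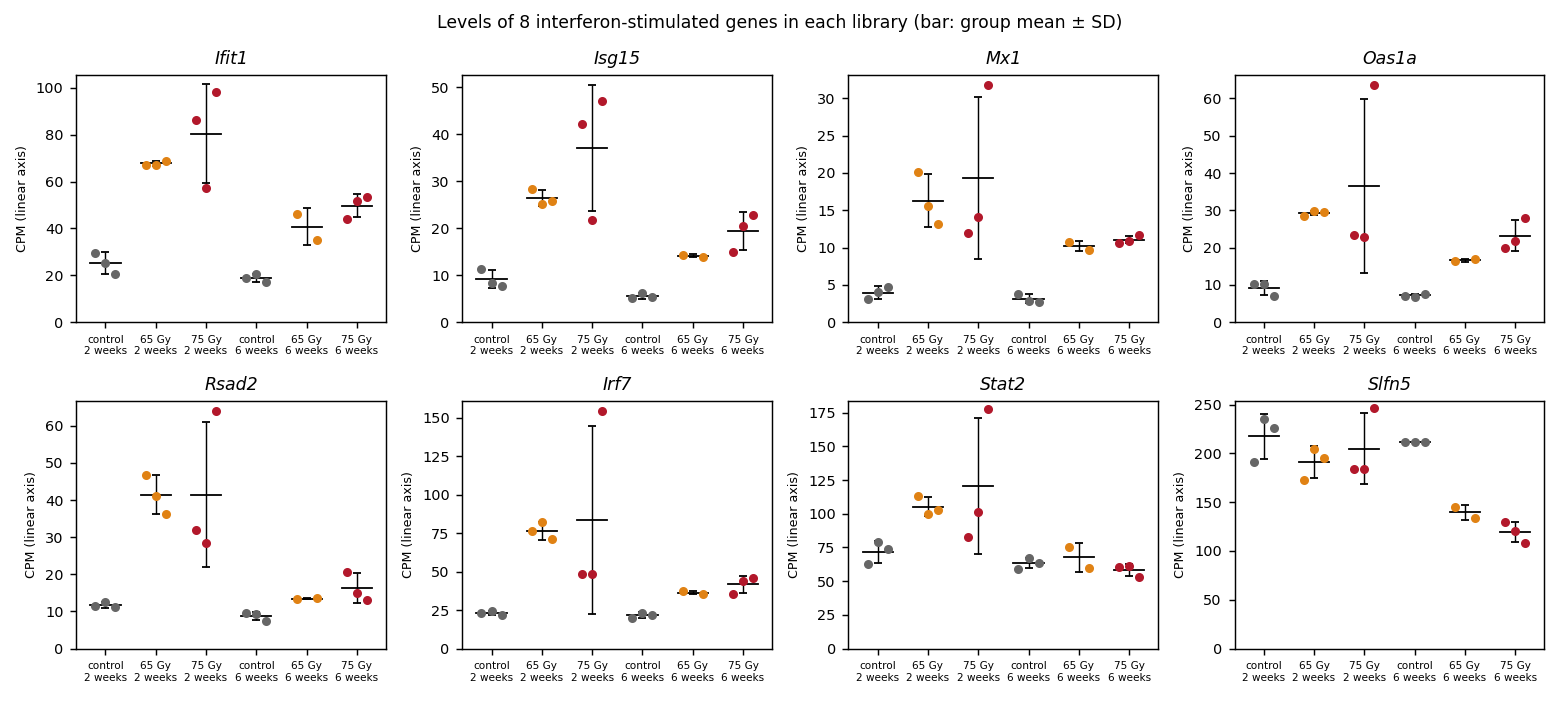
CPM of 8 genes in each library (points, linear axes from 0) by group, with the mean as a line and the SD as a bar. Ifit1, Isg15, Mx1 and Oas1a stay above the controls at 6 weeks, Rsad2 and Irf7 come nearer to them, Stat2 reaches 178 CPM only in library 3134, and Slfn5 lies below the controls at 6 weeks.

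Isg15 encodes the ubiquitin-like protein that is joined to other proteins in this response. Isg15 (GeneID 100038882, chr4:156199424-156200818) held 11.4, 8.33 and 7.72 CPM in the controls of 2 weeks, 28.4, 25.1 and 25.9 CPM at 65 Gy and 42.2, 21.8 and 47.1 CPM at 75 Gy. At 6 weeks the levels were 5.06, 6.26 and 5.38 CPM in controls, 14.4 and 14.0 CPM at 65 Gy and 15, 20.5 and 22.8 CPM at 75 Gy. The absolute level in irradiated lungs was thus lower at 6 weeks, as it was in controls, while the log2 fold change at 75 Gy was 2.02 (SE 0.24, adjusted p = 6.40e-05) at 2 weeks and 1.80 (SE 0.24, adjusted p = 9.05e-05) at 6 weeks. Usp18, which removes ISG15 and dampens the receptor, was not called, with 0.94 (SE 0.22) and 0.84 (SE 0.21) at 75 Gy. Of the 7 genes for ISG15, ubiquitin and ADP-ribose enzymes, Isg15 alone was called, in each of the 4 comparisons. By the adjusted p alone, 6 of the 7 were higher at 75 Gy and 3 at 65 Gy at 2 weeks. At 6 weeks 2 were at 75 Gy and 1 at 65 Gy. Over all genes the shares, in this order, were 11.8%, 6.7%, 18% and 7.66%.

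Among the sensors, Zbp1, which recognises left-handed nucleic acid and can start necroptosis, rose most. It held 12.5, 9.12 and 9.46 CPM in controls of 2 weeks, 40.1, 29.7 and 32.2 CPM at 65 Gy and 25.4, 29.7 and 91.8 CPM at 75 Gy, with a log2 fold change of 1.71 (SE 0.38) at 65 Gy (adjusted p = 0.00942) and 2.24 (SE 0.38) at 75 Gy (adjusted p = 0.000902). Without library 3134 the value at 75 Gy was 1.41. Dhx58 (LGP2), a regulator of the RIG-I-like receptors, was called at 2 weeks with 1.11 (SE 0.22) at either dose. Without library 3134 its value at 75 Gy was 0.69 (SE 0.14), under the limit. The receptors themselves were not called: Ddx58 (RIG-I) had log2 fold changes of 0.34 (SE 0.13) and 0.39 (SE 0.13) at 75 and 65 Gy at 2 weeks, and Ifih1 (MDA5) 0.46 (SE 0.12) and 0.45 (SE 0.12). At 6 weeks Ddx58 had 0.07 (SE 0.13) and -0.03 (SE 0.14), and Ifih1 -0.02 (SE 0.12) and -0.01 (SE 0.14). By the adjusted p alone, 3 of these 4 sensors were higher at 2 weeks at either dose. At 6 weeks 2 were at 75 Gy and 0 at 65 Gy. Over all genes the shares at 75 and 65 Gy were 11.8% and 6.7% at 2 weeks and 18% and 7.66% at 6 weeks.

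Of the 3 transcription factors, Irf7, the factor that amplifies interferon production and is itself induced by interferon, was called at 2 weeks. It held 22.9, 24.5 and 21.8 CPM in controls, 76.4, 82.5 and 71.0 CPM at 65 Gy and 48.5, 48.2 and 154 CPM at 75 Gy. All irradiated libraries were above the controls, and of the 75 Gy libraries only 3134 was above those of 65 Gy. The log2 fold change was 1.86 (SE 0.33, adjusted p = 0.00112) at 75 Gy and 1.73 (SE 0.33, adjusted p = 0.00354) at 65 Gy, and 0.94 (SE 0.32) and 0.74 (SE 0.35) at 6 weeks, under the limit. Without library 3134 the value at 75 Gy and 2 weeks was 1.07 (SE 0.11), still called. Stat2 and Irf9, which act in the ISRE-binding complex, were not called at any dose or time. By the adjusted p alone, all 3 factors were higher at 75 Gy and 2 weeks and 1 of them at 65 Gy and 2 weeks. Over all genes these shares were 11.8% and 6.7%. Stat2 held 113, 100 and 103 CPM at 65 Gy and 82.5, 102 and 178 CPM at 75 Gy at 2 weeks, against 62.9 to 78.9 CPM in controls. Its log2 fold changes at 75 and 65 Gy were 0.75 and 0.55 at 2 weeks. At 6 weeks they were -0.12 (SE 0.20) and 0.10 (SE 0.23). Irf9 had log2 fold changes of 0.44 (SE 0.12) and 0.35 (SE 0.12) at 2 weeks and 0.19 (SE 0.12) and 0.23 (SE 0.14) at 6 weeks, at 75 and 65 Gy.

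Slfn5, a Schlafen family gene, went the opposite way at 6 weeks. All 3 controls held 212 CPM, the 65 Gy libraries 145 and 134 CPM and the 75 Gy libraries 129, 121 and 109 CPM. The log2 fold change was -0.82 (SE 0.12, adjusted p = 0.000165) at 75 Gy and -0.60 (SE 0.14, adjusted p = 0.00906) at 65 Gy, past the limit on p but not on fold change, and it was the only one of the 43 with an adjusted p of at most 0.05 and a negative value. At 2 weeks its libraries overlapped the controls, with log2 fold changes of -0.09 (SE 0.12) and -0.19 (SE 0.12). Its relative Slfn8 had positive values in all 4 comparisons and was called at 75 Gy and 2 weeks, at 1.32 (SE 0.34), which became 0.58 without library 3134. Samd9l, a translation inhibitor, was among the genes with the largest p at 2 weeks, with values between -0.10 and 0.28 on the log2 scale in the 4 comparisons. Lgals3bp, which encodes a secreted galectin-binding glycoprotein, was called in all 4 comparisons. It held 115, 135 and 158 CPM in controls, 422, 433 and 391 CPM at 65 Gy and 357, 357 and 695 CPM at 75 Gy at 2 weeks, with log2 fold changes of 1.61 (SE 0.21) and 1.79 (SE 0.21), and 1.10 (SE 0.23) and 1.22 (SE 0.21) at 6 weeks.

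Library 3134 stood apart from the other libraries of 75 Gy at 2 weeks. The median over the 43 genes of log2 CPM minus the control mean was 1.49 in this library and 0.46 and 0.57 in the other 75 Gy libraries, against 0.81, 0.83 and 0.76 at 65 Gy. It was the highest of its group for 39 of the 43 genes. Without it, 12 genes remained called at 75 Gy and 2 weeks (all among the 22), with a median log2 fold change of 0.55, where 3.85% of all genes were called higher. The 10 that were lost were Ifit2, Ifit3b, Oas2, Oas3, Oasl1, Oasl2, Ifi44, Dhx58, Rtp4 and Slfn8, at log2 fold changes between 0.19 and 0.97.

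Other measures moved with the genes in library 3134. The summed level of 10 monocyte and macrophage markers was 1674 CPM there, 682 and 817 CPM in the other libraries of its group, 717 to 807 CPM at 65 Gy and 347 to 434 CPM in controls. At 6 weeks that sum was 701 and 726 CPM at 65 Gy and 782 to 870 CPM at 75 Gy, against 349 to 385 CPM in controls. Of these markers 6, 5, 6 and 6 of 10 were called higher at 75 and 65 Gy at 2 weeks and at 75 and 65 Gy at 6 weeks, led by Ms4a7 and Cd68. Over all genes, 5.67%, 3.47%, 7.28% and 4.34% were called higher in these comparisons. The counts of the markers were the same without 3134, and no marker was at 0 in any group. The sum of 8 endothelial markers was 1815 CPM in 3134, 2970 to 3487 CPM in the other irradiated libraries of 2 weeks and 4839 to 4986 CPM in controls, and of 8 markers of plasmacytoid dendritic cells, known as the main makers of interferon alpha, 207 CPM, 210 to 222 CPM and 243 to 273 CPM. Tcf4 alone held 63.5% to 80.3% of the latter sum at 2 weeks. The sum of the other 7 markers was highest in 3134, at 75.6 CPM against 50.5 to 63.6 CPM in the other irradiated libraries of 2 weeks and 48.0 to 59.3 CPM in controls. Of the 8 markers 5 had a positive value at 75 Gy and 2 weeks, with a median log2 fold change of 0.53 (0.23 without 3134), and Pacsin1 was called only with 3134. Other marker sums also set 3134 apart from the other libraries of its group. T and NK markers summed to 231 CPM there against 152 and 143 CPM, and B markers to 79.3 CPM against 133 and 123 CPM. Alveolar type 1 markers summed to 3435 CPM against 5492 and 4727 CPM. Neutrophil markers (185 CPM against 250 and 139 CPM) and alveolar macrophage markers (922 CPM against 963 and 778 CPM) did not set it apart. The part of these cell types in the result was not tested. Within its group, the deviation of the 43 genes was related to transcript length with a Spearman rho of -0.37 in 3132, 0.45 in 3133 and 0.13 in 3134 (over 16182 genes -0.21, 0.26 and 0.03), which describes these libraries and was not tested as a cause.

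**Figure D4:**
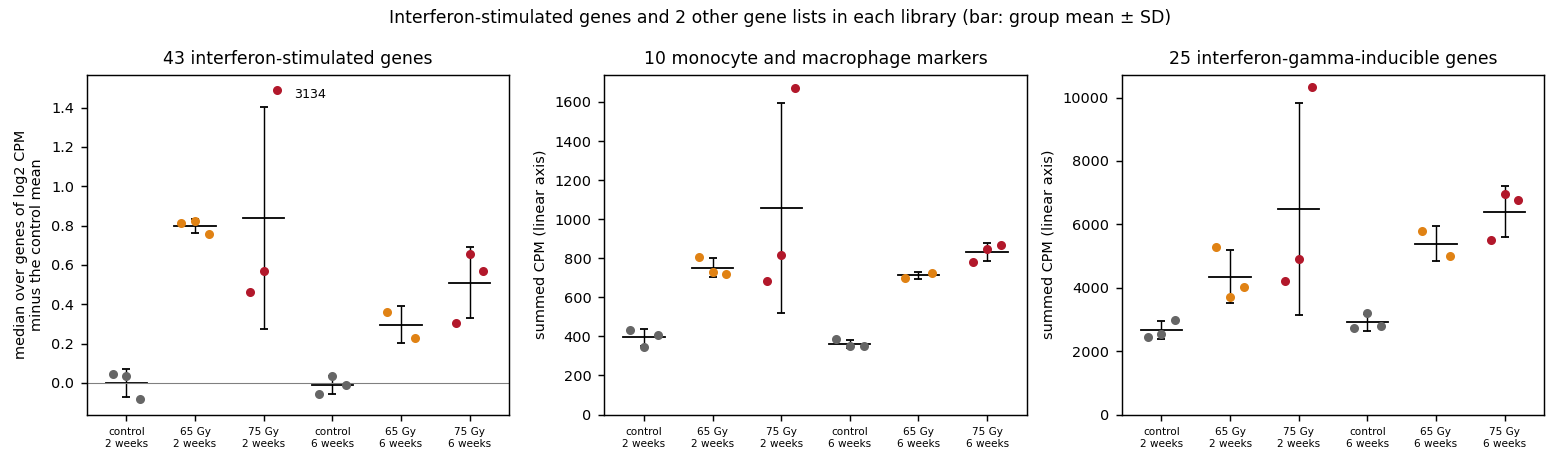
For each library (points) by group, with mean and SD, the left panel plots the median over the 43 genes of log2 CPM minus the control mean, the middle panel the summed CPM of 10 monocyte and macrophage markers and the right panel that of 25 genes inducible by interferon gamma. Library 3134 is the highest point in all panels, at 1.49, 1674 CPM and 10329 CPM.

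The direct comparison of the doses called none of the 43 genes at either time, and 0% and 0% of all genes, in edgeR's quasi-likelihood test. At an unadjusted p under 0.05 there was 1 gene at each time, Bst2 at 2 weeks (0.38, SE 0.17) and Ifit3 at 6 weeks (0.45, SE 0.21), and DESeq2 and edgeR's exact test called 0 and had 2 each. Over all genes 7.12% and 6.49% had such a p. Without library 3134 the numbers were 13, all lower at 75 Gy, and 9, against 7.64% and 8.77% of all genes. The median log2 difference between 75 and 65 Gy was 0.15 at 2 weeks, with 40 of 43 genes above 0, and 0.19 at 6 weeks, with 35 above 0. Without library 3134 the median at 2 weeks was -0.20, with 11 genes above 0 and 32 below, so the direction of the dose difference at 2 weeks rested on this library. Irf7 then had -0.66 (SE 0.11), Oas3 -0.80 (SE 0.19) and Ifi27l2a, the highest, 0.43, and 0 of the 43 genes were called. The absence of a call does not show that the doses act alike.

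**Figure D5:**
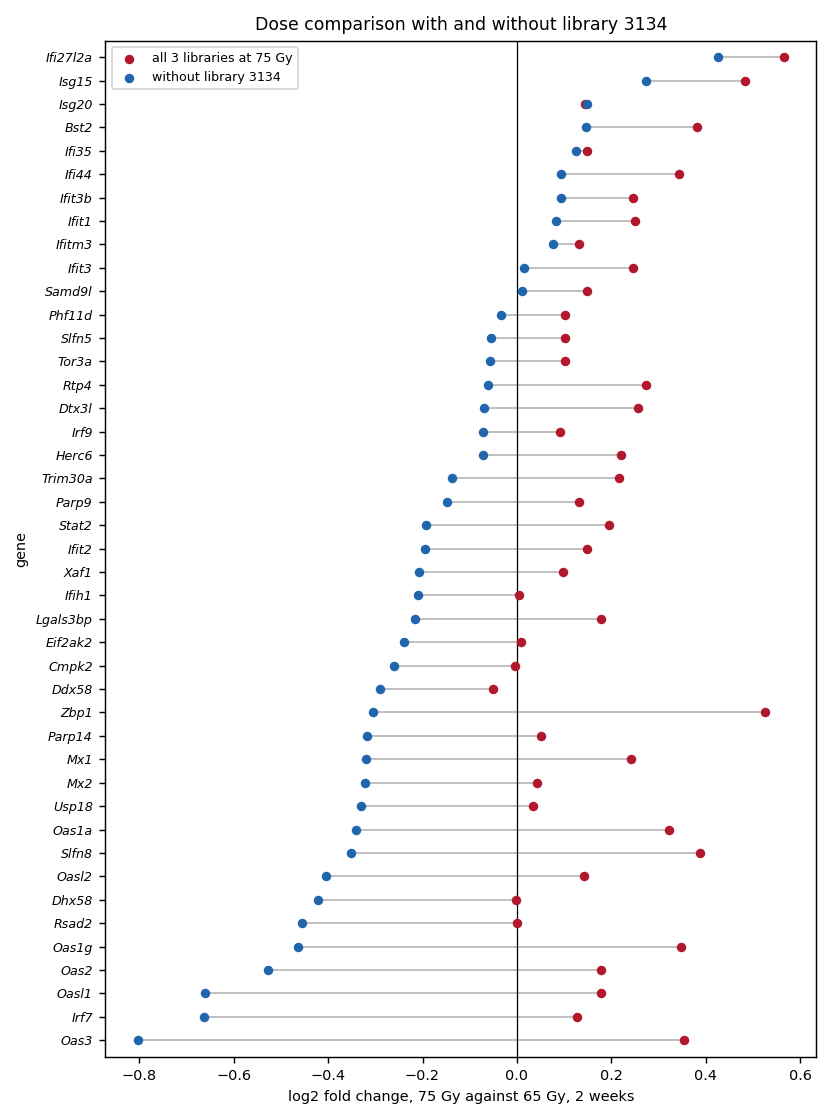
Log2 fold change of 75 Gy against 65 Gy at 2 weeks for each gene, with all 3 libraries of 75 Gy (red) and without library 3134 (blue), joined by a line. With all libraries 40 of 43 points lie above 0, and without 3134 32 lie below 0.

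The log2 fold change against controls was lower at 6 than at 2 weeks for 38 of the 43 genes at 75 Gy and for 39 at 65 Gy, with median differences of -0.46 and -0.45 on the log2 scale. In the test of this difference none of the 43 was called in edgeR's quasi-likelihood test or in DESeq2, where 0.254% of all genes were called at 75 Gy and 0.0136% at 65 Gy. At an unadjusted p under 0.05 there were 13 genes at 75 Gy and 9 at 65 Gy (14 and 11 in DESeq2), where 16.1% and 8.65% of all genes had one, and without library 3134 there were 8 and 21, against 15.5% and 11.1%. The smallest p belonged to Slfn5 at 75 Gy (-0.74, SE 0.17, adjusted p = 0.0866), which went further below the controls, and to Ifit2 at 65 Gy (-1.02, SE 0.27, adjusted p = 0.359). Rsad2 and Mx2 followed at 65 Gy, with -1.19 (SE 0.37) and -1.03 (SE 0.36). At 75 Gy the median difference was -0.07 without library 3134, with 27 of 43 genes below 0. At 65 Gy it stayed at -0.45 without it, and Ifit2 was then called (-1.01, SE 0.14, adjusted p = 0.0248).

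The 43 genes were also compared between the controls of both times. Over all genes tested, 11265 of 22052 had a higher value in the controls of 6 weeks, with a median of 0.01. Of the 43 genes 39 were lower in the controls of 6 weeks than in those of 2 weeks, with a median log2 difference of -0.19, but none was called in edgeR's quasi-likelihood test, DESeq2 or edgeR's exact test, where 0.576% of all genes were called in the first. At an unadjusted p under 0.05 there were 5 genes (7 in DESeq2 and 5 in the exact test, and 10 without library 3134), against 15.5% of all genes (17.8% without 3134), led by Isg15 (-0.72, SE 0.24, adjusted p = 0.162) and Irf9 (-0.37, SE 0.12, adjusted p = 0.166). With all libraries, the count in edgeR's quasi-likelihood test was thus not above the share over all genes.

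The interferons themselves were hardly counted. Of 20 listed ligand genes, 11 had no count in any of the 17 libraries, and only Ifng passed the filter. Ifnb1 had 2 counts in each of 2 irradiated libraries (3131 and 3143) and none elsewhere. Ifng, the type II interferon of T and NK cells, had between 8 and 92 counts per library, with the highest in 3134, and was not called (log2 fold change 1.23, SE 0.46, adjusted p = 0.0666 at 75 Gy and 2 weeks, and 0.63 without 3134). The receptor genes Ifnar1 and Ifnar2 were detected in all libraries and not called, with log2 fold changes between -0.11 and 0.33, and 0 of 6 receptor genes were called in any comparison with controls.

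Of 14 signalling genes, 4, 1, 1 and 1 were called higher at 75 and 65 Gy at 2 weeks and at 75 and 65 Gy at 6 weeks, and none lower, where 5.67%, 3.47%, 7.28% and 4.34% of all genes were called higher. At 65 Gy and at 6 weeks the single call is thus near the share over all genes. Socs3, a feedback inhibitor also induced by interleukin 6, was the one called in all 4, between 1.22 and 1.73. Socs1, Irf5 and Irf8 were the others called at 75 Gy and 2 weeks. Without library 3134 Irf5 (0.77, SE 0.19) and Irf8 (0.60, SE 0.19) were not called, and Socs1 had 1.07 (SE 0.31) in place of 1.87 (SE 0.42). Jak1 had values between -0.33 and -0.12, Tyk2 between 0.00 and 0.23 and Irf1 between -0.10 and 0.28, without a call. Of 19 genes of nucleic acid sensing, 5, 1, 2 and 1 were called higher in the same order, against the same shares of all genes, and none lower. Without library 3134 the first count was 1, where 3.85% of all genes were called higher. That count and the other counts of this list are near the shares over all genes. Tmem173, which encodes STING, was called at 75 Gy at 2 weeks (1.42, SE 0.26) and 6 weeks (1.31, SE 0.26) and at 65 Gy at 6 weeks (1.07, SE 0.28). Trex1, the exonuclease that removes cytosolic DNA, was called at 2 weeks at 75 Gy (1.85, SE 0.40) and 65 Gy (1.54, SE 0.40), and Tlr7, Tlr9 and Ikbke were called at 75 Gy and 2 weeks, with Tlr7 also at 6 weeks. At 75 Gy and 2 weeks Trex1 alone stayed called without 3134, at 1.04 (SE 0.26), with Tmem173 at 0.99 and Tlr7 at 0.93 just under the limit, Tlr9 at 0.85 and Ikbke at 0.57. Cgas had 0.82 (SE 0.22) with all libraries there and was not called.

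Of 41 tested other interferon-stimulated genes, 9, 6, 7 and 4 were called higher at 75 and 65 Gy at 2 weeks and at 75 and 65 Gy at 6 weeks. The shares of all genes called higher were 5.67%, 3.47%, 7.28% and 4.34%. The medians of the 41 were 0.36, 0.34, 0.03 and 0.03, and without library 3134 the first comparison had 6 calls and a median of 0.08. Slfn9, Phf11a, Ifi205 and Ifi211 were higher in all 4 comparisons. Phf11a had 1.71 (SE 0.26) at 2 weeks and 2.30 (SE 0.27) at 6 weeks after 75 Gy. Ifitm6 fell at 2 weeks at both doses (-1.44, SE 0.36, and -1.14, SE 0.35). Of 25 genes inducible mainly by interferon gamma, such as the guanylate-binding proteins and MHC class II, 19, 2, 9 and 6 were called higher, against the same shares of all genes, with medians of 1.33, 0.60, 0.61 and 0.55. Without library 3134, 5 were called at 75 Gy and 2 weeks, with a median of 0.66. Gbp2, for example, held 105, 106 and 316 CPM there against 80.3 to 89.9 CPM in controls. Their summed level was 10329 CPM in library 3134, 4214 and 4895 CPM in the others of its group, and 5495 to 6961 CPM at 75 Gy and 6 weeks. Cd74, H2-Aa, H2-Ab1 and H2-Eb1 held 74.4% of the sum in 3134 and 83.3% to 86.2% at 75 Gy and 6 weeks. The other 21 genes summed to 2644 CPM in 3134, 1059 and 1132 CPM in the others of its group and 757 to 1160 CPM at 75 Gy and 6 weeks. With all libraries, 22 of the 25 log2 fold changes at 75 Gy were lower at 6 than at 2 weeks, but only 12 at 65 Gy. The fall at 75 Gy rested largely on library 3134, since the median without it was 0.66 at 2 weeks against 0.61 at 6 weeks.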

How the data were processed

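Stranded mRNA libraries of lung RNA had been sequenced in pairs on a NovaSeq instrument. The authors trimmed the reads with Trimmomatic, aligned them with HISAT2 to GRCm38.p6 and estimated expression with StringTie, and how counts were made from this is not given in the sources used here. The deposited values are raw read counts per gene in whole numbers, without normalization, for 45777 genes identified by symbol and NCBI GeneID.

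All 17 libraries were fitted together with edgeR 4.0.16 in R 4.3.3 (1 coefficient per group, TMM factors, and filterByExpr set to at least 10 counts and a total of 15, which kept 22052 genes) and compared with the quasi-likelihood F test, with Benjamini-Hochberg adjustment over all genes. Calls needed an adjusted p no greater than 0.05 and a log2 fold change of 1 or more in either direction. Single levels per library are plain CPM, and differences of a library from a control or group mean used log2 CPM with a prior count of 2. DESeq2 1.42.0, edgeR's exact test, other scalings, other filters, the compared groups alone and the leaving out of each library were the alternatives. The fit was tested on simulated data.

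The 43 genes and the other lists were chosen with earlier results of these data known. Genes were named when they had the 6 smallest or the 3 largest p in a comparison with controls, and Stat2, Irf9, Irf7 and the pairs Ifit3 and Ifit3b, and Oas1a and Oas1g, were named in any case. Pathway genes were named when called or when central to the pathway. A result for 1 further signalling gene is not reported here. Other members, among them Zbp1, Oas3, Usp18, Bst2, Dhx58, Slfn8 and the genes whose call was lost without library 3134, were named after their values were seen. The third library of 65 Gy at 6 weeks was not analysed here.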

Additional observations from a re-analysis of the deposited data

How the results depend on the processing

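By the adjusted p alone, 35, 26 and 20 of the 43 genes passed at 75 Gy and 2 weeks, 65 Gy and 2 weeks and 75 Gy and 6 weeks, against 22, 14 and 9 with the limit on fold change, and a fit of only the groups compared called 14 at 75 Gy and 2 weeks. Leaving out each library in turn gave 12 to 24 calls at 75 Gy and 2 weeks (12 without 3134), 2 to 7 at 65 Gy and 6 weeks (2 without 3138, which leaves 1 library that is assumed to vary like the other groups), and 0 to 1 for the effect of 65 Gy at 6 against 2 weeks (1 without 3134). The medians of the 43 genes ranged from 0.78 to 0.87 at 65 Gy and 2 weeks and from 0.24 to 0.37 at 65 Gy and 6 weeks in these fits. Library 3134 is in no group of the 65 Gy comparisons with controls. Leaving it out could move them only through what the joint fit shares, such as the estimate of spread and the filter. The cause of the other changes was not tested. The other counts of calls stayed within 1.5 times of the value reported under every alternative run.

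Among the named genes, those near 0 changed sign. With 1 library left out, the log2 fold change at 75 Gy and 2 weeks ranged from -0.0085 to 0.36 for Ifitm3 and from -0.086 to 0.28 for Samd9l, and at 75 Gy and 6 weeks from -0.063 to 0.021 for Dtx3l and from -0.049 to 0.043 for Ifih1 (0.0032 and 0.017 with upper-quartile factors). At 65 Gy and 2 weeks it ranged from -0.20 to 0.12 for Samd9l, from -0.016 to 0.074 for Tor3a and from -0.14 to 0.22 for Ifitm3. At 65 Gy and 6 weeks the ranges were -0.058 to 0.0016 for Ddx58 (0.0023 with only the groups compared), -0.021 to 0.10 for Ifitm3, -0.027 to 0.023 for Ifih1 and -0.063 to 0.26 for Stat2, and Ifih1 had 0.016 with upper-quartile factors, 0.0082 with every gene of at least 1 count, 0.0052 with at least 10 counts in every library and 0.019 with only the groups compared. None of these was called in any of the 4 comparisons. Calls of named genes were lost in 12 cases and gained in 1, among them Oas1a at 65 Gy and 6 weeks, which was lost whichever of the 5 libraries compared was left out.

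The alternative chosen after seeing the data left library 3134 out of the counts of the other lists at 75 Gy and 2 weeks. The calls then fell from 4 to 2 signalling genes, from 5 to 1 genes of nucleic acid sensing, from 9 to 6 other interferon-stimulated genes, from 19 to 5 genes inducible by interferon gamma and from 1 to 0 markers of plasmacytoid dendritic cells, with the monocyte and macrophage markers at 6 in both. No paired analysis was possible because the labels give every library a separate number that groups do not share. With 2 or 3 libraries in a group, small differences between doses or times could not be told from the spread. With all libraries, even differences between times of several SE, as in Slfn5 and Ifit2, did not pass the limit on adjusted p. The SE beside most values belongs to a comparison with controls, not to one between doses or times.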
